A study of Rattus norvegicus with 6 samples.

Results

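Heat shock proteins and their co-chaperones were compared between 2 groups of LPS-treated neonatal rat cardiomyocyte cultures, one transfected with an siRNA against Mettl3, the catalytic subunit of the m6A RNA methyltransferase, and one with a control siRNA. The members were all protein-coding genes whose symbol names an HSP70, HSP90, HSP110, chaperonin, small heat shock, J-domain (Dnaj), BAG or heat shock factor gene. The table of 32623 genes held 83 of them, each with its own symbol. The families were mostly level between the groups: 7 of 73 tested members passed the limma threshold, no more than the share of all genes that did. The small heat shock protein gene Hspb3 and the J-domain gene Dnajc21 were lower and Dnajb14 higher after Mettl3 knockdown by both limma and edgeR. The limma call of Dnajc21 was lost in every fit that left out a library. Bag3, a stress-induced co-chaperone, was higher by limma and DESeq2 and missed the threshold by edgeR. Its limma call too was lost in each such fit.

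Molecular chaperones bind unfolded stretches of other proteins and help them fold, hold them soluble or pass them on to degradation. HSP70 proteins do so in cycles of ATP hydrolysis that J-domain proteins start and that BAG and HSP110 proteins reset by nucleotide exchange. HSP90 proteins finish the folding of kinases and steroid receptors. Small heat shock proteins hold unfolding clients without ATP. Heat shock factors switch on many of these genes under stress. In heart muscle Bag3 together with Hspb8 is known for clearing damaged Z-disc proteins by autophagy.

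The cells were primary ventricular cardiomyocytes of Sprague-Dawley rats at postnatal day 1 to 3, all from 1 isolate pooled from several animals. Both groups received an siRNA for 24 h, siNC in the controls and siMETTL3 (here siMettl3) in the knockdown, and then LPS, the bacterial cell wall component that starts an inflammatory response, for 6 h. Each group had 3 libraries of total RNA. All libraries received LPS, and the values therefore compare knockdown with control under LPS and say nothing of the response to LPS itself. The replicates are cultures or preparations of 1 isolate, as far as the labels say, and p-values measure the spread between these libraries, which may be technical.

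Total counts were 71202469 to 76668751 per library, with 18308 to 18667 genes counted. Mettl3 itself was at 18.2, 17.2 and 15.3 FPKM (fragments per kilobase of transcript, scaled to library size) with siNC and at 10.3, 10.6 and 9.9 FPKM with siMettl3, 60.6% of control (limma adjusted p = 0.00661). The labelled cell type was matched by its markers: the summed level of 8 cardiomyocyte genes such as Tnnt2, Myh6 and Actc1 was 14070 to 15864 FPKM in siNC and 12851 to 14811 FPKM in siMettl3 libraries, and 0 of the 8 passed the limma threshold, with 1 at an unadjusted p under 0.05 (Actc1, limma adjusted p = 0.0845, was called lower by edgeR at adjusted p = 0.0291). Other cells were present and moved with the groups. Of 9 tested fibroblast markers 6 were lower, their listed sum going from 1490 to 1559 FPKM in siNC to 909 to 968 FPKM in siMettl3 libraries. Lower too were 4 of 6 smooth muscle and pericyte markers, with sums of 3715 to 4216 against 2491 to 2702 FPKM, and 6 of 7 macrophage and leukocyte markers, with sums of 76.2 to 92.7 against 40.02 to 51.5 FPKM. Endothelial markers Cdh5 and Tek were higher, 2 of 3 tested, with list sums of 11.2 to 12.7 against 14.3 to 15.8 FPKM. Among 3 erythroid genes Hbb was higher by limma (adjusted p = 0.0479), not by edgeR (adjusted p = 0.0575), and kept the limma call in 1 of 6 fits without 1 library. Their sums were 89.9 to 131.0 against 145.0 to 212.8 FPKM. In bulk RNA, fewer cells of a type and less RNA per cell cannot be told apart, and the part of these shifts in the values below was not tested.

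Promoter sequences of some members are given to show which of the searched elements lie beside them. RefSeq's GRCr8 promoters, read here over the 250 bases upstream of each gene start, were matched for 65 of the 83 members, 1 of them by a synonym. The sequences of Hspb3 and Bag3 are shown as examples of members that passed limma, and that of Hspa8 because it carries 2 heat shock elements and passed edgeR. Those of Dnajb14 and Dnajc21, which passed both limma and edgeR, are not shown. Capitals mark the fixed bases of the named element, MEF2 in Hspb3, AP-1 in Bag3 and the heat shock element in Hspa8.
Hspb3, GRCr8 chr2:47029166-47029415, reverse strand: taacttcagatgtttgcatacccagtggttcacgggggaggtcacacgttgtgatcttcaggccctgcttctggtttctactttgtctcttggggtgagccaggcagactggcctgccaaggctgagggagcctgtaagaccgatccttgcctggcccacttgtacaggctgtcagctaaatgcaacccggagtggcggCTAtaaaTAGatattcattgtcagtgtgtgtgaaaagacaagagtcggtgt
Bag3, GRCr8 chr1:192533210-192533459, forward strand: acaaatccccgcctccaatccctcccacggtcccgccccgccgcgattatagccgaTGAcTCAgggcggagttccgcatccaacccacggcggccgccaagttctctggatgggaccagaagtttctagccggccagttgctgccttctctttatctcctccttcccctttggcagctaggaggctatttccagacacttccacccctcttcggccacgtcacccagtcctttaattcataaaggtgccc
Hspa8, GRCr8 chr8:50080264-50080513, forward strand: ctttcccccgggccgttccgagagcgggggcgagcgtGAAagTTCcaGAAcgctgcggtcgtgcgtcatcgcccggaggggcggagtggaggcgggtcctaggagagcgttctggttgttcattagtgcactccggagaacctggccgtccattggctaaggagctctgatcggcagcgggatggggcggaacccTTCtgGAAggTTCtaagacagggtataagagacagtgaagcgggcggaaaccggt
The MEF2 element of Hspb3 lay at bases -51 to -42 from the gene start, the AP-1 element of Bag3 at -194 to -188, and the heat shock elements of Hspa8 at -213 to -201 and at -55 to -43. The heat shock element, searched on both strands as GAA, TTC and GAA with 2 free bases between neighbours, was found in 4 matched members (Hspa8, Hspd1, Hspe1 and Hsph1, 6.15%) against 0.663% of 33469 promoters of the same length. Hspd1 and Hspe1 lie head to head on chromosome 9 and share theirs, where the matches overlap. The ER stress element, CCAAT and CCACG with 9 free bases between them on either strand, was found in Hspa5, Hsp90b1 and Dnajc3 (4.62% against 0.0657% of promoters). Sites of Hsph1, Hspe1, Hspa5, Hsp90b1 and Dnajc3 are shown with 10 flanking bases where the window allows. Capitals mark the fixed bases of all heat shock or ER stress matches in the stretch.
Hsph1, GRCr8 chr12:10427322-10427354, forward strand: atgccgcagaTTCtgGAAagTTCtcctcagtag
Hspe1, GRCr8 chr9:64084252-64084284, forward strand: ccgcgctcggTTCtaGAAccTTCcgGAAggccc
Hspa5, GRCr8 chr3:38452963-38453001, forward strand: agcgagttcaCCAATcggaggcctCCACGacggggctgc
Hsp90b1, GRCr8 chr7:23012441-23012479, reverse strand: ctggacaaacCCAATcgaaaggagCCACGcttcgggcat
Hsp90b1, GRCr8 chr7:23012337-23012375, reverse strand: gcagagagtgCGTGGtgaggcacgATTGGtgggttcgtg
Dnajc3, GRCr8 chr15:102432524-102432562, forward strand: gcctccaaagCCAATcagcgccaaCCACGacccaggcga
The MEF2 element was searched loosely, as CTA and TAG with any 4 bases between them, after the Hspb3 sequence had been read. This pattern was in 4 members (6.15%) against 3.41% of promoters. The AP-1 element, searched as TGANTCA with any base at N, was in 4 members (6.15%) against 6.34% of promoters. A match is a description of the letters and not a site of binding. Genes with a heat shock element had values on both sides of 0 (Hspa8 and Hspe1 negative, Hspd1 and Hsph1 positive), while the 3 with an ER stress element had 2 positive values, Hspa5 and Dnajc3, and 1 negative, Hsp90b1.

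Of the 83 members, 73 had a mean of at least 1 FPKM and entered the test. The other 10 were below it, Hsf4 just below at 0.971 FPKM. Of these, 3 (Dnajb8, Dnajc5g and Hsf5) had no read in any library. Differences were tested by limma on log2(FPKM + 1) over 13105 genes with Benjamini-Hochberg adjustment to 0.05. Fold changes are siMettl3 minus siNC on that log2 scale, which understates those of low genes. The limma fit called 7 members (9.59%), 5 higher and 2 lower, where it called 10.9% of all tested genes, 6.53% higher and 4.4% lower. edgeR on the counts called 5 members, 1 higher (Dnajb14) and 4 lower (Hspb3, Dnajc21, Hspa8 and Hsf2bp), where it called 9.98% of genes, 3.39% higher and 6.59% lower. DESeq2 on the counts called 12 members, where it called 18.3% of genes, 7.71% higher and 10.6% lower. Its 4 higher members were Dnajb14, Dnajc11, Dnajc16 and Bag3. The 8 lower ones were Hspb3, Hspb1, Hspb7, Hspa8, Hspa1b, Dnajc21, Bag1 and Hsf2bp. The share called in either direction was below the background in each test, and these shares are not a result about the members. The 2 scalings differ: the median gene stood at 0.07 by limma and at 0.00 by edgeR, the median member at 0.04 and -0.03. Median-ratio size factors, a measure of the typical FPKM level of a library, were 0.973 to 0.986 in siNC and 1.02 to 1.03 in siMettl3 libraries. The FPKM values and sums given here are not divided by them. Both the directions of small changes and small separations of the groups, above all upward ones, are therefore read against this shift. Groups did not overlap for 29 of 73 tested members (39.7%; 19 higher and 10 lower), where 37.9% of all tested genes did so (26.4% higher and 11.5% lower). The 95% interval of the fold change lay within 1.5-fold of no change for 68 of the 73 (93.2%), against 81.6% of all tested genes. These intervals are on the log2(FPKM + 1) scale, which draws low genes inside the bound. Hsf2bp, at 62.6% of control, counts as within it. The 2 shares were not matched for level. Together the members held 1.07% of the summed FPKM, and their sum went from 5805 ± 194 to 5699 ± 233 FPKM (SD, n = 3 each).

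**Figure D1:**
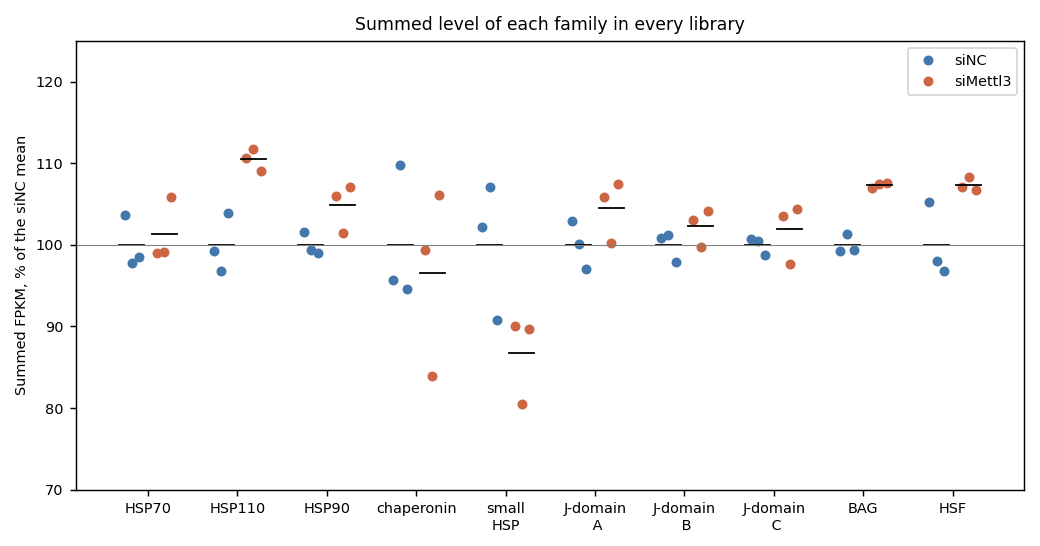
Summed FPKM of the members of each family in every library, as a percent of the siNC mean of that family; points are libraries and bars group means. Only the small heat shock proteins (86.8% of the siNC mean) have all siMettl3 libraries below all siNC libraries. The HSP110, BAG and HSF sums have them all above. These sums are not divided by the median-ratio size factors, which were higher in the siMettl3 libraries.

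The HSP70 proteins, which bind unfolded chains, were led by Hspa5 in the endoplasmic reticulum and Hspa8 in the cytosol. Hspa8 was at 497.6, 464.2 and 474.9 FPKM in siNC and 408.9, 407.9 and 439.9 FPKM in siMettl3 libraries, a log2 fold change of -0.19 (SE 0.0624) that limma did not call (adjusted p = 0.0908) and edgeR did (-0.27, adjusted p = 0.0307). The siMettl3 libraries all lay below the siNC libraries. The gene contains SNORD14 copies on the same strand, and reads from it and its many near copies may be shared. Hspa5, the chaperone BiP of the endoplasmic reticulum, was at 512.0, 480.6 and 472.2 FPKM against 541.6, 523.5 and 587.8 FPKM (0.17, SE 0.0705, limma adjusted p = 0.148). Its groups do not overlap as undivided FPKM, and edgeR put the change at 0.10 with adjusted p = 0.358. The stress-inducible Hspa1b was lower in all 3 siMettl3 libraries, 9.71, 10.3 and 9.03 FPKM against 7.59, 8.64 and 8.67 FPKM. It passed in neither limma (adjusted p = 0.134) nor edgeR (adjusted p = 0.0663), while DESeq2 called it lower (adjusted p = 0.0255). It overlaps other genes on the same strand, RefSeq lists Hspa1b as a synonym of Hspa1a, and Hspa1a is not analysed here. The mitochondrial Hspa9 was at 145.9 ± 2.74 and 160.6 ± 10.3 FPKM (0.14, limma adjusted p = 0.174), without overlap of the groups. None of the 9 tested HSP70 genes passed limma, and 3 of them, Hspa5, Hspa8 and Hspa1b, had an unadjusted p under 0.05; edgeR called Hspa8.

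The HSP110 proteins, which exchange the nucleotide of HSP70, showed 3 positive values. Hspa4 was at 86.9, 85.4 and 90.8 FPKM with siNC and at 98.3, 100.2 and 98.0 FPKM with siMettl3, which do not overlap (0.17, SE 0.0472, limma adjusted p = 0.0619; edgeR 0.10, adjusted p = 0.248). Hsph1, whose promoter carries the heat shock element shown above, was at 40.3 ± 1.64 and 42.5 ± 0.740 FPKM (0.07, limma adjusted p = 0.357). The cytosolic HSP90 genes were Hsp90ab1, at 535.1 ± 9.34 and 594.9 ± 20.6 FPKM (0.15, limma adjusted p = 0.136), and the stress-inducible Hsp90aa1, at 208.9 ± 4.27 and 215.9 ± 4.90 FPKM (0.05, limma adjusted p = 0.546). Hsp90b1, the endoplasmic reticulum form, was at 291.7 ± 8.0 and 275.0 ± 12.3 FPKM (-0.09, limma adjusted p = 0.350). No HSP110 or HSP90 gene passed limma or edgeR, and 1 of each, Hspa4 and Hsp90ab1, had an unadjusted limma p under 0.05. Limma after quantile normalization called Hsp90ab1 higher (0.29, adjusted p = 0.0211).

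Of 8 listed members that work in the endoplasmic reticulum, a list that leaves out the membrane protein Dnajb14 described below, 0 passed limma or edgeR, with limma log2 fold changes from -0.09 to 0.17; 2 had an unadjusted limma p under 0.05, Hspa5 and Dnajb9. The ratio of Hspa5 to Hsp90b1 nevertheless was 1.70, 1.68 and 1.64 in control and 1.96, 2.0 and 2.05 after knockdown, without overlap. This pair was chosen after its values were seen. The mitochondrial chaperonin pair stayed within its spread: Hspd1 was at 191.8 ± 3.14 and 199.4 ± 6.30 FPKM (0.06, limma adjusted p = 0.480), and its lid Hspe1 at 247.1 ± 37.5 and 224.1 ± 43.5 FPKM (-0.15, limma adjusted p = 0.568). The Hspe1 gene has a short effective length of 275 bases and the widest interval of the high members, -0.54 to 0.24.

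**Figure D2:**
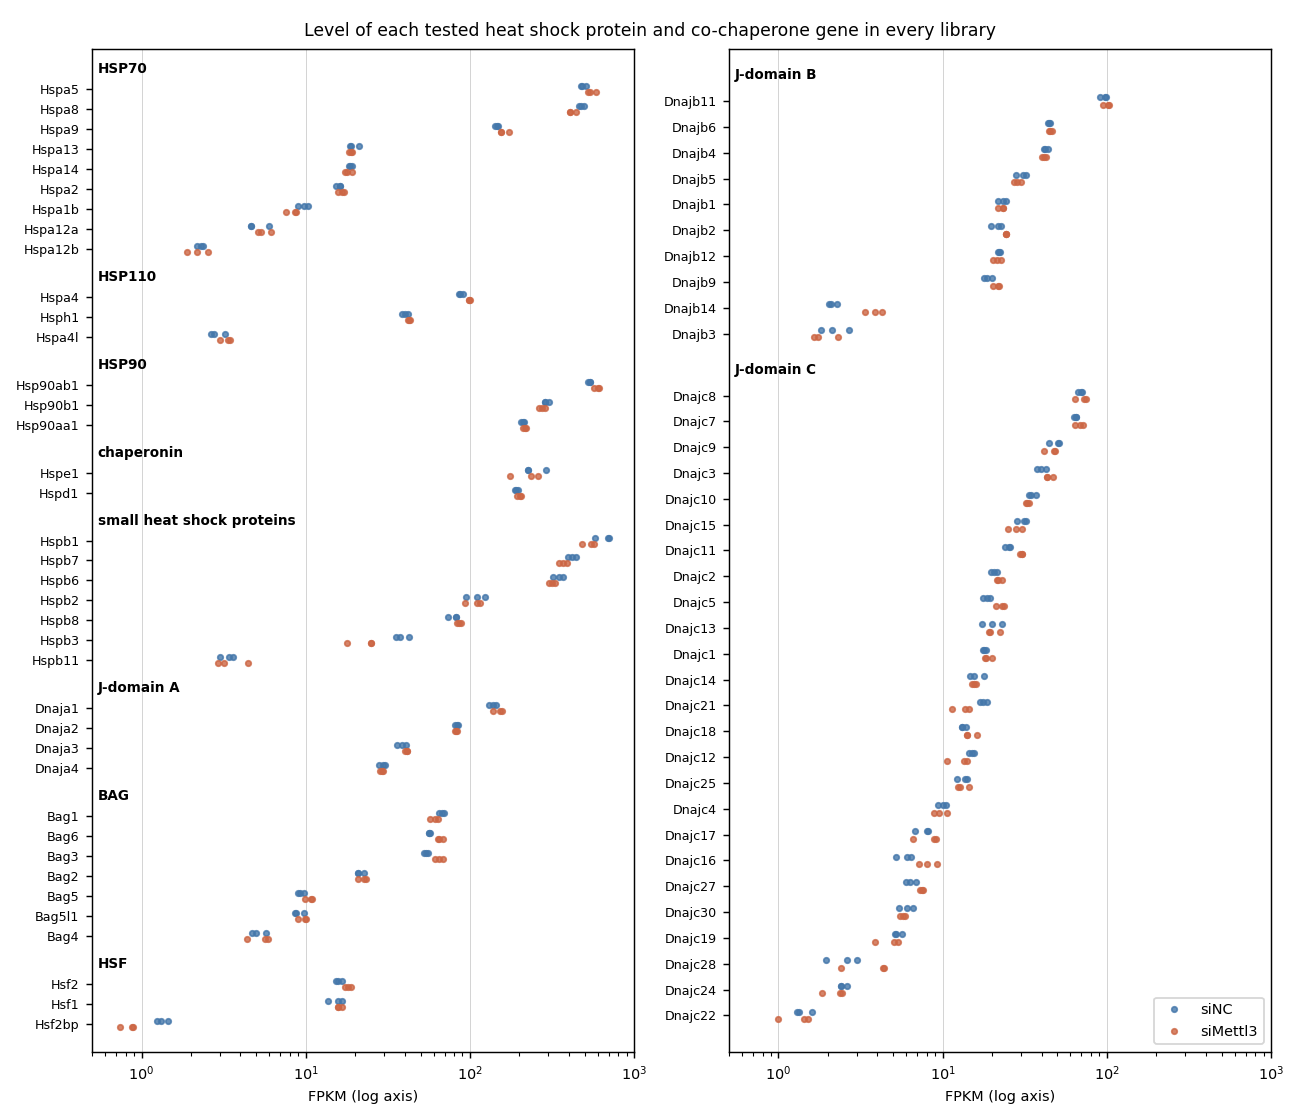
FPKM of each of the 73 tested members in each library on a logarithmic axis, by family, with siNC and siMettl3 libraries in 2 colours. The points of both groups lie near each other for most members. Those of Hspb3 and Dnajb14 lie clearly apart.

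The small heat shock proteins hold unfolding proteins in muscle, and Hspb3 forms a muscle complex with Hspb2. Hspb3 was at 37.6, 42.8 and 35.2 FPKM with siNC and at 24.9, 17.9 and 24.9 FPKM with siMettl3. Every siMettl3 library lay below every siNC library, with means at 58.5% of control (log2 fold change -0.76, SE 0.137, limma adjusted p = 0.0224; edgeR -0.85, adjusted p = 0.0161). The limma call was lost without siNC replicate 1, siNC replicate 2 or siMettl3 replicate 1, at adjusted p-values of 0.0631 to 0.0840. Hspb2 was at 109.4 ± 14.1 and 106.2 ± 11.1 FPKM (-0.04, limma adjusted p = 0.839), so that the ratio of Hspb2 to Hspb3, a pair chosen after the values were seen, went from 2.93, 2.88 and 2.70 to 4.43, 5.23 and 4.62.

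The other small heat shock proteins were mostly below control without passing. Hspb1, HSP27, was at 689.1, 705.4 and 573.5 FPKM with siNC and at 544.8, 480.5 and 567.4 FPKM with siMettl3, and its groups do not overlap (-0.30, SE 0.106, limma adjusted p = 0.108; edgeR adjusted p = 0.0561). Hspb7, a cardiac small heat shock protein, was at 417.2, 440.5 and 396.7 FPKM against 387.5, 349.8 and 368.9 FPKM, also without overlap (-0.18, limma adjusted p = 0.128). Hspb6 was at 347.1 ± 24.5 and 316.2 ± 13.9 FPKM (-0.13, limma adjusted p = 0.248). Hspb8, the partner of Bag3, was at 79.5 ± 4.90 and 85.7 ± 2.73 FPKM (0.11, limma adjusted p = 0.260). Of the 7 tested members Hspb3 passed limma and edgeR, and DESeq2 also called Hspb1 (adjusted p = 0.00412) and Hspb7 (adjusted p = 0.00877) lower. The remaining 1 of 8, Hspb9, was below the filter. The family sum went from 1652 ± 138 to 1434 ± 89.8 FPKM, 86.8% of control. Many of these are short transcripts, with a median effective length of 1282 bases against 2062 for all tested members, though Hspb7 is at 2064. With each library's length trend removed, an alternative described below, limma called Hspb1, Hspb7 and Hspb3 lower.

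**Figure D3:**
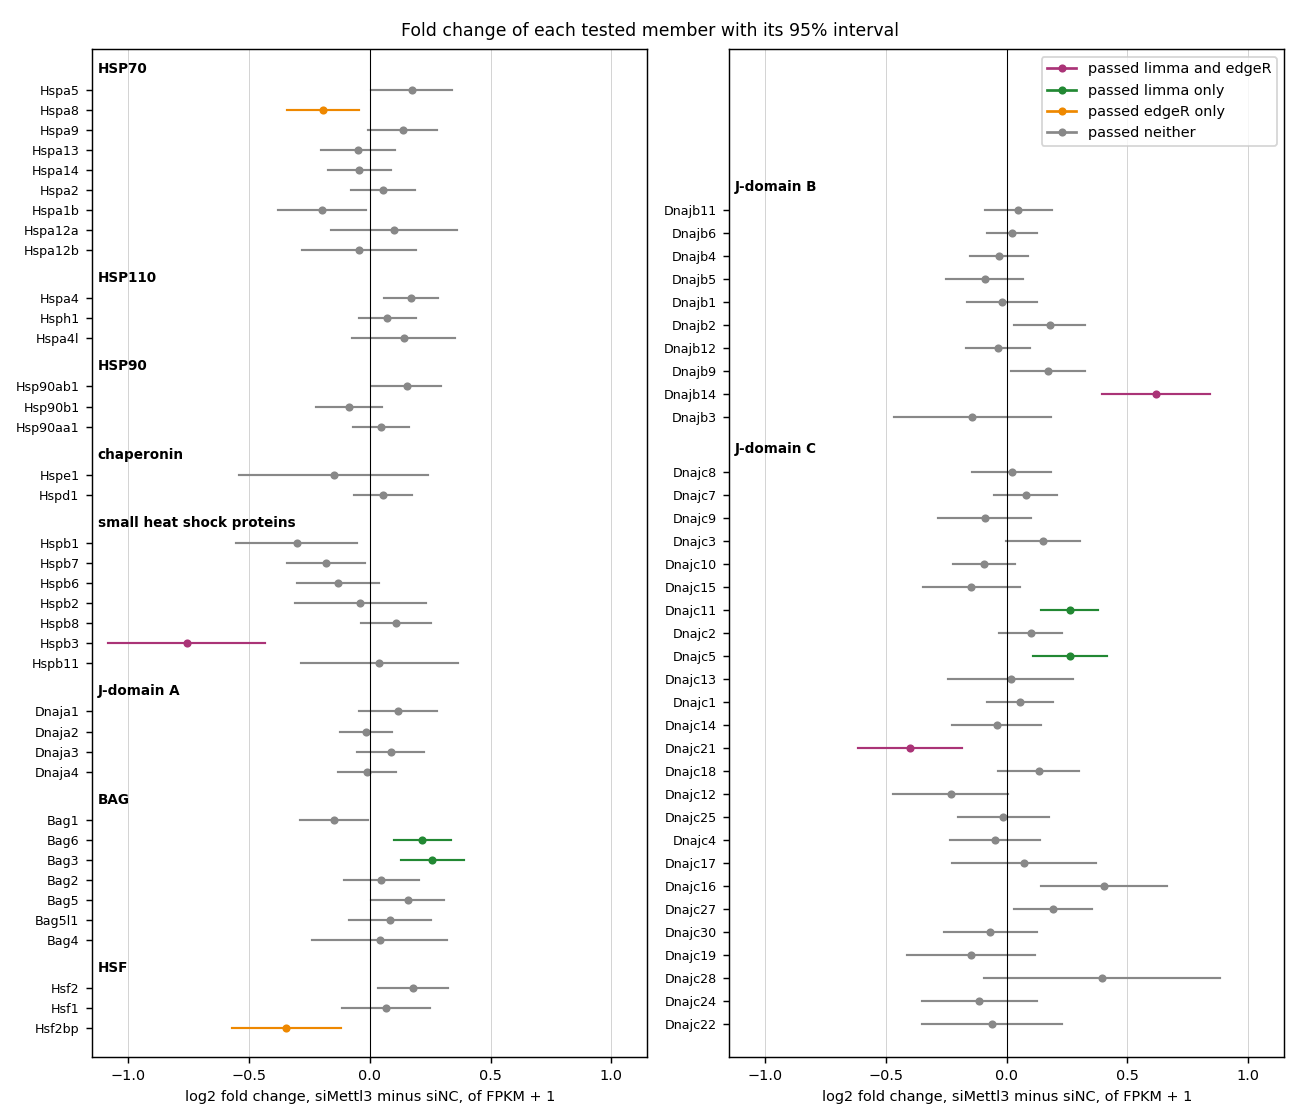
Log2 fold change, siMettl3 minus siNC, of each tested member by family, with its 95% interval. Hspb3 is lowest at -0.76 and Dnajb14 highest at 0.62; colours mark the 9 members that passed limma or edgeR.

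J-domain proteins start the HSP70 cycle and deliver its clients. Dnajb14, which sits in the endoplasmic reticulum membrane, rose: it was at 2.27, 2.02 and 2.10 FPKM with siNC and at 3.36, 4.24 and 3.86 FPKM with siMettl3, 179.3% of control, with no overlap (0.62, SE 0.0946, limma adjusted p = 0.0153; edgeR 0.76, adjusted p = 0.0142). Without siNC replicate 1 or siNC replicate 2 its limma adjusted p was 0.0561 and 0.0518. Dnajb14 is a low gene that overlaps H2az1, a histone variant gene, on the same strand, and H2az1 was at 128.0 ± 9.47 and 126.4 ± 16.3 FPKM (limma adjusted p = 0.897). Dnajc21, which assists ribosome assembly in yeast and human cells, was at 18.5, 17.6 and 16.9 FPKM with siNC and at 13.7, 11.4 and 14.5 FPKM with siMettl3, again apart (-0.40, SE 0.0911, limma adjusted p = 0.0390; edgeR -0.50, adjusted p = 0.0272). No fit that left out a library kept its limma call, with adjusted p from 0.0530 to 0.128, nor did the fit without a filter on low values (0.0677).

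Dnajc11, a mitochondrial J-domain protein, was at 25.3, 25.7 and 23.9 FPKM in siNC against 29.7, 30.4 and 30.3 FPKM in siMettl3 libraries (0.26, SE 0.0497, limma adjusted p = 0.0255; edgeR adjusted p = 0.0534). Dnajc5, the synaptic vesicle chaperone CSP alpha, was at 18.7, 17.6 and 19.4 FPKM against 21.1, 22.9 and 23.5 FPKM (0.26, SE 0.0641, limma adjusted p = 0.0469; edgeR adjusted p = 0.125). The siMettl3 libraries lay above the siNC libraries for both genes, and in none of the 6 fits that left out a library did either pass limma. Well-known J-domain members did not pass. Dnaja1 was at 137.4 ± 7.07 and 149.1 ± 9.61 FPKM (0.12, limma adjusted p = 0.283), and Dnajb1 at 23.1 ± 1.3 and 22.7 ± 0.851 FPKM (-0.02, limma adjusted p = 0.839). Dnajb6 was at 44.5 ± 0.556 and 45.2 ± 0.879 FPKM (0.02, limma adjusted p = 0.767) and Dnajb4 at 42.4 ± 1.37 and 41.4 ± 1.25 FPKM (-0.03, limma adjusted p = 0.702). The endoplasmic reticulum genes Dnajb9 (18.8 ± 1.12 and 21.3 ± 1.04 FPKM; limma adjusted p = 0.130) and Dnajc3 (39.9 ± 2.63 and 44.4 ± 2.03 FPKM; limma adjusted p = 0.166) stood apart between groups and did not pass. Other abundant members were Dnaja2 at 82.9 ± 2.10 and 82.0 ± 1.16 FPKM, Dnajb11 at 96.0 ± 4.37 and 99.3 ± 4.59 FPKM, and Dnajc8 and Dnajc7 at 69.2 ± 2.05 and 64.3 ± 1.16 FPKM in siNC and 70.3 ± 5.60 and 68.0 ± 3.76 FPKM in siMettl3 libraries. Their limma adjusted p ranged from 0.374 to 0.862. By limma 1 of 10 tested J-domain B genes and 2 of 25 tested J-domain C genes were higher, 1 of the latter was lower, and none of 4 J-domain A genes passed limma or edgeR, or had an unadjusted limma p under 0.05.

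BAG proteins reset HSP70 and steer clients to the proteasome or to autophagy. Bag3, the marker gene of the set and the partner of Hspb8, was at 55.4, 53.7 and 52.8 FPKM with siNC and at 64.7, 68.2 and 61.5 FPKM with siMettl3. All siMettl3 libraries lay above all siNC libraries, at 120.1% of control (0.26, SE 0.0550, limma adjusted p = 0.0337). On the counts DESeq2 called it higher (0.19, adjusted p = 0.0323), and edgeR did not (0.19, adjusted p = 0.0713). Each of the 6 fits without 1 library lost the limma call, with adjusted p from 0.0529 to 0.107. Bag6, which handles misplaced membrane proteins, was at 57.2, 56.0 and 56.2 FPKM against 63.6, 69.0 and 65.0 FPKM, also apart (0.22, SE 0.0498, limma adjusted p = 0.0394; edgeR adjusted p = 0.106), and was likewise lost in all 6. It overlaps another gene on the opposite strand. Bag1, which links HSP70 to the proteasome, was lower without overlap, 67.4 ± 2.41 against 60.7 ± 3.51 FPKM (-0.15, limma adjusted p = 0.146). Bag5 and Bag5l1, which RefSeq treats as 1 gene, may share reads and are given together as uncertain, at 9.32 ± 0.350 and 9.03 ± 0.607 FPKM in siNC. The BAG sum went from 222.7 ± 2.54 to 239.0 ± 0.660 FPKM, 107.3% of control.

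**Figure D4:**
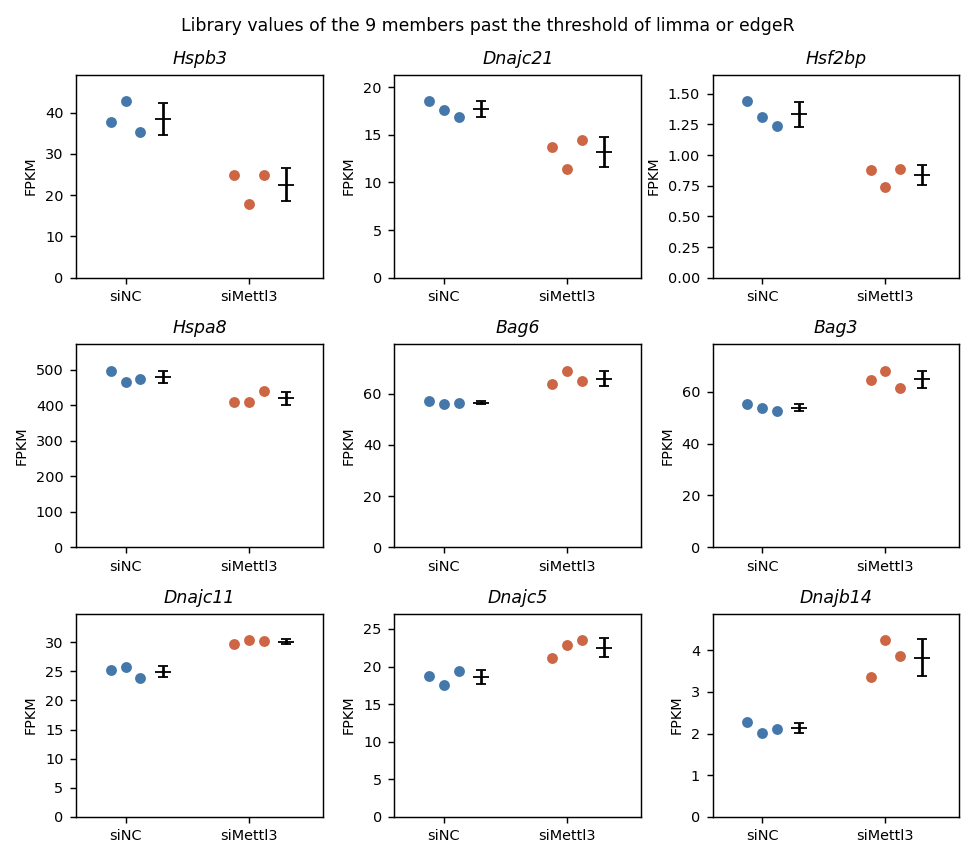
FPKM in each library of the 9 members that passed the threshold by limma or edgeR, siNC and siMettl3. The libraries of both groups do not overlap in any panel.

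The heat shock factors, which switch on chaperone genes, were low in level. Hsf1 was at 15.3 ± 1.44 and 16.1 ± 0.550 FPKM (0.07, limma adjusted p = 0.580), and Hsf2 at 15.9 ± 0.782 and 18.1 ± 0.797 FPKM, apart between groups (0.18, limma adjusted p = 0.102). Hsf2bp, which the name rule also takes in, encodes a protein that binds heat shock factor 2 and works in meiosis. It was at 1.44, 1.31 and 1.24 FPKM with siNC and at 0.875, 0.741 and 0.887 FPKM with siMettl3, which edgeR called lower (-0.75, adjusted p = 0.0258) and limma did not (-0.35, adjusted p = 0.0617). The rule likewise takes in Hspb11, which RefSeq names Ift25 for its role in transport within cilia, at 3.36 ± 0.302 and 3.52 ± 0.829 FPKM.

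Genes that work with the members were taken as lists from their known roles. Of the 18 HSP90 and HSP70 cochaperones, 14 TRiC and prefoldin subunits and 10 mitochondrial folding and proteolysis genes, 0 passed limma and 0 passed edgeR, with 3, 1 and 1 at an unadjusted limma p under 0.05. The genes nearest to the limma threshold in these lists, Clpb and Fkbp4, had adjusted p of 0.0666 and 0.0915. Among 14 endoplasmic reticulum folding genes Hyou1, an HSP110-like nucleotide exchange factor, was higher by limma (0.20, adjusted p = 0.0430) and not by edgeR (adjusted p = 0.141). Among 10 partners of Bag3 in clearing clients Sqstm1, the autophagy receptor p62, rose from 121.4 ± 3.46 to 156.3 ± 1.24 FPKM (0.36, limma adjusted p = 0.00958; edgeR 0.29, adjusted p = 0.0135). Cryab, the alpha B crystallin small heat shock protein that the name rule does not take in, was at 967.8 ± 138.0 and 816.1 ± 87.4 FPKM (-0.24, limma adjusted p = 0.245). Among 8 tested regulators and targets of the stress response Hmox1, heme oxygenase, rose from 31.3 ± 1.45 to 52.4 ± 3.31 FPKM (0.72, limma adjusted p = 0.00417; edgeR 0.67, adjusted p = 0.003). The transcription factor Atf3 was lower (-0.34, limma adjusted p = 0.0437; edgeR adjusted p = 0.0267). Median limma log2 fold changes were 0.06 for the cochaperones, -0.01 for TRiC and prefoldin, 0.06 for the mitochondrial genes, 0.07 for the endoplasmic reticulum genes, 0.04 for the partners of Bag3 and 0.13 for the stress response genes, beside 0.07 for all tested genes.

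Transcript length moved with these values. Across all tested genes the log2 fold change rose with effective length, from a median of -0.02 in the shortest of 5 equal length classes to 0.15 in the longest. Across the members the rank correlation with length was 0.316 and across all tested genes 0.246, given as a description over genes that share libraries. The library siMettl3 replicate 2 deviated from its group mean by a median of -0.10 in the shortest class and 0.09 in the longest, siNC replicate 3 by -0.08 and 0.08, and siNC replicate 2 by 0.06 and -0.08. The part of length in the member values was not tested. With each library's length trend removed, an alternative chosen after the data were seen, limma called 10 members, 3 higher (Dnajb14, Dnajc11 and Bag3) and 7 lower (Hspb3, Hspb1, Hspb7, Hspa8, Dnajc10, Dnajc21 and Hsf2bp).

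**Figure D5:**
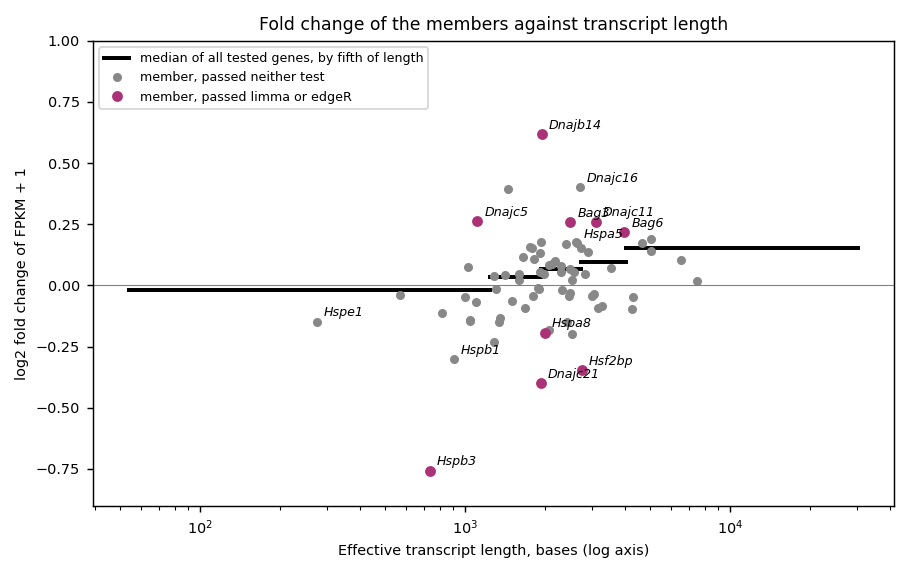
Log2 fold change of tested members against effective transcript length on a logarithmic axis, with bars at the medians of all tested genes in 5 length classes. The bars climb from -0.02 to 0.15, and Hspb3, the lowest member, is among the shorter transcripts.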

How the data were processed

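The 6 rat cardiomyocyte libraries, 3 siNC and 3 siMettl3, all with LPS, were taken from the deposited table. The authors deposited FPKM values and read counts per gene, per the file headers; FPKM and counts kept a constant ratio within 1% for 98.7% of the 14527 genes with at least 20 counts. Bowtie 0.12.2 and the build name mm8 are listed, with no role, per the submitters' processing notes; the counting tool, annotation and rat build are not given in the sources used here, and strand use is not stated. Members were protein-coding rows chosen by symbol. The members and the gene lists were chosen with earlier results of these data known. The 13105 genes whose mean over the 6 libraries reached 1 FPKM were tested by limma 3.58.1 in R 4.3.3 on log2(FPKM + 1) with an intensity trend. They were also tested with edgeR 4.0.16 (quasi-likelihood, TMM) and DESeq2 1.42.0 on the deposited counts. Each test used Benjamini-Hochberg adjustment and a threshold of 0.05, over all tested genes for limma and edgeR. DESeq2 kept its default filtering, so its adjustment may cover fewer genes, while its share called is given over all tested genes. Named were members past the threshold in limma or edgeR, preset well-known members and the highest 2 of each family. Some other members are also named, such as those that another fit called. Total counts were 71202469 to 76668751 per library; the number of libraries limits the precision. The scripts were tested on simulated data. Replicate numbers are not stated to pair libraries, and the deviations of same-numbered libraries correlated at 0.03, -0.25 and -0.12. Promoters are RefSeq sequences of GRCr8, and no coordinates of the deposited table were combined with them. Values of 1 listed gene outside the members are not reported here.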

Additional observations from a re-analysis of the deposited data

How the results depend on the processing

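For all tested genes limma called 1432 (856 higher and 576 lower), edgeR 1308 (444 and 864), and median-ratio scaling of FPKM 1139 (358 and 781), so the split by direction depends on the scaling while every named member kept its direction wherever it was called. DESeq2 called 2394 genes and 12 members, limma without a filter on low values 903 genes, and median-ratio scaling 4 members (1 higher and 3 lower). Among network genes outside the members 5 were called, and 3 by each of edgeR, limma without a filter, edgeR with its own filter, median-ratio scaling and limma without the intensity trend; the cause was not tested. Limma after quantile normalization called 1221 genes and 7 members, 4 higher and 3 lower. Hspa5 (0.33, adjusted p = 0.0333) and Hsp90ab1 (0.29, adjusted p = 0.0211) were then called higher. Bag3 (adjusted p = 0.0544) and Bag6 (adjusted p = 0.0694) were not called, and Hspa8 stood at -0.04 (adjusted p = 0.715). Removing the length trend gave 1888 genes and 10 members.

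Leaving out 1 library gave 206 to 861 genes, 0 to 2 members, 1 to 3 network genes and 7 to 15 markers, with fewer samples in each fit; 2 members were called when siNC replicate 3 was dropped, and 0 when siNC replicate 1 or siNC replicate 2 was dropped.

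Same-numbered libraries are not stated to be pairs. With the replicate number as a block limma called 6 genes (2787 at an unadjusted p under 0.05), 0 members (9), 0 network genes (7) and 0 markers (24); Mettl3 then had adjusted p = 0.0726. The 36 named members and Mettl3 gave 629 gene and setting pairs. Of these, 543 kept their side of the threshold, 67 lost it, 19 gained it and 0 reversed. Only Mettl3 and the 7 members called in the main limma fit could lose a call. Most of the 543 pairs are of genes not called in that fit, so they do not measure how stable the calls are. In 37 pairs without a call on either side the sign differed.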
